A study of Mus musculus with 24 samples.

Results

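At 10 IU/ml, 3 h of interferon (IFN) epsilon was set against the same dose and time of IFN beta in ID8 cells, a mouse ovarian cancer line derived from surface epithelium. The comparison used 5 of the 21 cell samples of the study, 3 with IFN epsilon and 2 with IFN beta, paired by replicate number where both had one. Each sample came from cells plated 24 h before treatment with recombinant mouse interferon, and 3 untreated samples given the vehicle, PBS, served as background. Replicates were made on separate dates (dates 1, 2 and 3 below), wells of one treatment and date were combined, and total RNA was labelled with Cy3 on Agilent arrays. The labels name a single line of cultured cells, so the samples are repeat experiments on that line and not separate tumours or animals.

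IFN beta at this dose has no date 3 sample here because the labels mark that array as excluded, giving an unusually strong induction of interferon-stimulated genes as the reason. A list of 59 antiviral effector genes was used, chosen with earlier results of these data known. Over these genes the excluded array's median log2 difference from untreated cells of the same date was 2.89. That median was 0.32 and 0.38 in the 2 retained IFN beta samples and 1.02, 1.58 and 1.58 in the 3 IFN epsilon samples. The excluded array therefore stood above every IFN epsilon sample, and the results below describe the comparison without it. With it included, limma called 0 genes (494 at an unadjusted p under 0.05) in place of 17, and the antiviral median difference between the interferons was 0.20 in place of 0.93.

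Type I interferons bind the receptor pair Ifnar1 and Ifnar2, which activates the kinases Jak1 and Tyk2. These phosphorylate transcription factors, Stat2 among them, that join Irf9 to bind interferon-stimulated response elements in the promoters of antiviral genes. IFN epsilon is known for its steady production by epithelium of the female reproductive tract, whereas IFN beta is typically made after infection is sensed. International units measure biological activity and not mass, so equal units need not hold equal numbers of molecules.

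Markers of the labelled cell type were present: 11 of 13 epithelial and mesothelial markers, including keratins, Msln and Wt1, were well above background on all arrays of untreated, IFN beta and IFN epsilon cells, and Pax8 was on 0 of the 5 interferon arrays compared. Of 15 leukocyte markers 5 (Cd3e, Cd4, Cd68, Itgam, Csf1r) were above background, while Ptprc, Cd3d, Cd8a, Cd79a, Adgre1, Itgax, Lyz2 and Ncr1 were on 0 of those 5. Their summed level relative to the 75th percentile was 3.26 to 5.01 in untreated cells, 3.86 to 4.55 with IFN beta and 3.81 to 4.84 with IFN epsilon, ranges that overlap. Of 15 endothelial, fibroblast and adipocyte markers 9 to 10 were above background on all arrays of a group, among them Col1a1, Dcn and Acta2, while Cdh5, Tek, Vwf, Lum and Adipoq were on 0 of those 5. Their summed level was 252 to 325 in untreated cells, 239 to 267 with IFN beta and 247 to 315 with IFN epsilon, against 339 to 472, 340 to 372 and 318 to 486 for the epithelial and mesothelial list. In such bulk RNA a smaller share of responding cells and less RNA per cell cannot be told apart. The 75th percentile of probe intensity lay between 619 and 1201 over the 24 arrays, the lowest value being the IFN epsilon sample of date 3. The number of arrays limits the precision: the median half-width of the 95% interval of a gene's difference was 0.28 (log2).

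Of 14425 genes tested, 17 were higher with IFN epsilon than with IFN beta and 0 were lower (0.118% called; limma, Benjamini-Hochberg adjusted p under 0.05). The 17 were Trim30a, Oas3, Usp18, Oas2, Trim30d, Isg15, Dhx58, Ifi44, Phf11d, Irf7, AW011738, Trim34a, Oasl2, Trim12c, Ddx58, Apol9b and Apol9a. Their folds ran from 2.22 to 6.09 with a median of 3.71, and 6 were at least 4-fold. They include antiviral enzymes, viral RNA sensors, the signalling brake Usp18 and the transcription factor Irf7. At an unadjusted p under 0.05, 192 genes were higher and 250 lower (3.06% in both directions together), where chance alone would give about 721. The lowest adjusted p among lower genes was 0.559.

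The calls rest on few samples. The fit took its spread and date terms from 19 samples in 7 groups, other doses included. With only the 5 samples compared and no block, limma called 0 of the 17. Limma called 16 genes without the IFN epsilon sample of date 1, 1 (lower, and not among the 17) without that of date 2 and 0 without that of date 3 (335 at an unadjusted p under 0.05). It called 0 without the IFN beta sample of date 1 (332 unadjusted) and 9 (7 higher, 2 lower, none of them among the 17) without that of date 2. The 17 differences stayed positive in each of these fits, from 1.11 to 2.94.

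To show what the called genes carry upstream, promoter sequences were searched for GAAANNGAAA, the core of the interferon-stimulated response element, on both strands (TTTCNNTTTC on the other). The windows ran from 250 bases before to 50 after each annotated start (RefSeq, GRCm38.p6), and matches may overlap. Of the 17 called genes 14 had an entry, and 9 of these held the motif (64.3%), against 415 of 11421 tested genes with an entry (3.63%) and 1131 of 32851 windows in all (3.44%). Usp18, Oas2 and Dhx58 had no entry. Trim12c held a match 29 bases before its start and is not shown. At another annotated start of Trim30a the match lay after the start. The following stretches, 5′ to 3′ on the strand of the gene with the matches in capitals, lie before an annotated start and are shown as examples from 6 genes.
Isg15 (chr4:156200855-156200916, minus strand): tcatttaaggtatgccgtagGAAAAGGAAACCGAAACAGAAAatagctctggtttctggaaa
Oas3 (chr5:120777705-120777754, minus strand): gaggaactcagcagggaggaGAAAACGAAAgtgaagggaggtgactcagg
Trim30a (chr7:104465200-104465249, minus strand): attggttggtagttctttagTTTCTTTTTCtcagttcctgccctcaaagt
Trim30d (chr7:104507861-104507910, minus strand): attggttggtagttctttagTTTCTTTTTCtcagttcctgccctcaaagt
Apol9b (chr15:77729015-77729070, plus strand): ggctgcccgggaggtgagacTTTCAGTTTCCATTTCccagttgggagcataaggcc
Apol9a (chr15:77411104-77411159, minus strand): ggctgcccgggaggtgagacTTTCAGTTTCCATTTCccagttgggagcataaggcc

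Isg15 holds 3 overlapping matches in 1 run, starting 78 bases before the start site. The stretches of Trim30a and Trim30d are identical, as are those of Apol9a and Apol9b, and whether the probes separate the members of each pair was not tested. Among 50 antiviral effectors with an entry, 25 held the motif, compared with 1 of 23 cell cycle genes (4.35%), 1 of 14 NF-kB targets (7.14%) and 0 of 11 housekeeping genes. The motif's absence from the windows of Ifi44, Phf11d, Irf7, AW011738 and Oasl2 says only that these letters are not in them. A match is a description of letters and not evidence of binding in these cells. Several called genes are neighbours: Oas2 and Oas3 are adjacent on chromosome 5, 1 annotated gene lies between Isg15 and AW011738 on chromosome 4, and Trim34a, Trim12c, Trim30a and Trim30d follow one another on chromosome 7 with 7, 4 and 1 genes between.

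**Figure D1:**
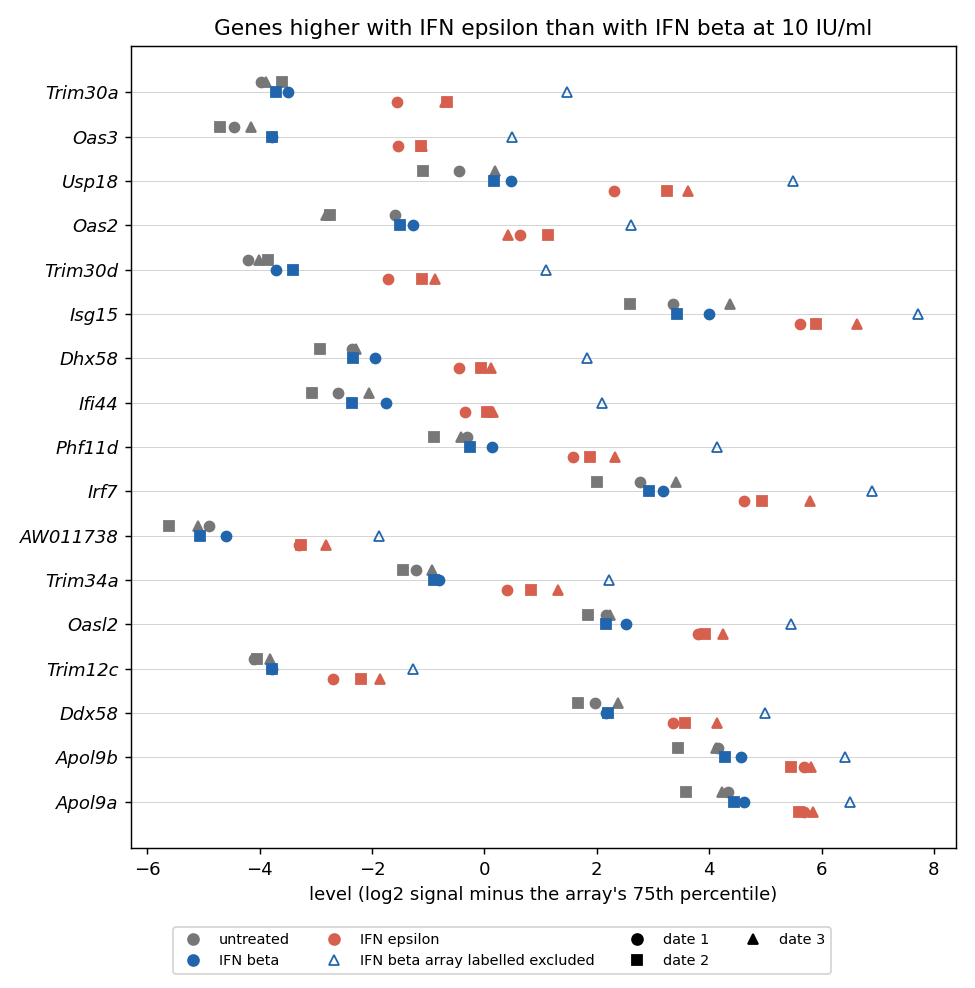
Level of each of the 17 called genes in every untreated, IFN beta and IFN epsilon sample at 10 IU/ml; the horizontal axis is log2 signal minus the array's 75th percentile, marker shape gives the date, and open triangles are the IFN beta array labelled excluded. In all 17 rows the 3 IFN epsilon points lie right of both filled IFN beta points and left of the open triangle.

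Levels below are log2 signal relative to each array's 75th percentile, and differences are log2 values of IFN epsilon minus IFN beta with the date as a block, ± the standard error of the fit. Among the receptor, kinase and transcription factor genes, 1 of 17 tested was called higher and 0 were called lower (0.118% of all genes were called). That gene was Irf7, the factor that amplifies interferon production and is itself interferon-inducible. Its level was 2.76, 2.01 and 3.41 in untreated cells on dates 1, 2 and 3, 3.19 and 2.92 with IFN beta on dates 1 and 2, and 4.61, 4.94 and 5.79 with IFN epsilon. Every IFN epsilon sample was above every other, and the difference was 1.82 ± 0.26 (3.53-fold, adjusted p = 0.0202).

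Other signalling genes differed less. Stat2 differed by 1.09 ± 0.26 (adjusted p = 0.382) and Irf9, its DNA-binding partner, by 0.71 ± 0.17 (adjusted p = 0.336). Neither was called, although in both the groups were separate. The receptor chains gave differences near 0: Ifnar1 -0.10 ± 0.12, with a 95% interval of -0.35 to 0.15 (0.06 and -0.07 by its other probes), and Ifnar2 -0.01 ± 0.09, with an interval of -0.22 to 0.19. Jak1 differed by 0.14 ± 0.13 and Irf1, an early interferon-responsive factor, by -0.04 ± 0.32. The median over the 17 genes was 0.12, against -0.02 over all genes tested.

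Of 16 inhibitors of interferon signalling, 1 was called (0.118% of all genes were). Usp18 removes Isg15 from proteins and also holds back signalling at Ifnar2. In untreated cells its level was -0.45, -1.08 and 0.20. With IFN beta it was 0.48 and 0.18, and with IFN epsilon 2.30, 3.25 and 3.63, so that the lowest IFN epsilon sample lay well above the highest of the others. The difference was 2.48 ± 0.33 (5.58-fold, adjusted p = 0.0188). Socs1, a fast feedback inhibitor of Jak kinases, was at -2.01 and -1.91 with IFN beta and at -1.64, -1.61 and -0.96 with IFN epsilon. On dates 1 and 2 Socs1 was higher with IFN epsilon by 0.37 and 0.30. Its fitted difference, with date terms taken from all doses, was 0.11, below both. The 95% interval was -1.13 to 1.35, too wide to place it. Socs3 differed by 0.19 ± 0.10, and the list's median was 0.09.

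The antiviral effectors held most of the called genes, 10 of 59 tested and none lower (0.118% of all genes were called), with a list median of 0.93. In 50 of the 59 every IFN epsilon sample was above both IFN beta samples, where 2.79% of all genes showed that order, and 29 were at least 2-fold higher in the fit (0.617% of all genes). Isg15, a ubiquitin-like protein that is conjugated to targets during infection, was at 3.36, 2.59 and 4.37 in untreated cells, 4.00 and 3.42 with IFN beta, and 5.61, 5.90 and 6.63 with IFN epsilon. The IFN beta samples lay inside the untreated range, whose top is date 3, a date with no retained IFN beta sample. Against untreated cells of the same date they were higher by 0.64 and 0.83. The IFN epsilon samples lay above that range, and the difference between the interferons was 2.06 ± 0.27 (4.18-fold, adjusted p = 0.0188).

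Genes of the 2′-5′ oligoadenylate synthetase family, whose active members switch on RNase L when they meet double-stranded RNA, gave 3 of the 10. Oas3 was at -4.46, -4.71 and -4.15 in untreated cells, at -3.78 in both IFN beta samples, and at -1.54, -1.13 and -1.11 with IFN epsilon (difference 2.55 ± 0.32, adjusted p = 0.0188). Oas2 was at -1.59, -2.75 and -2.83 untreated, -1.27 and -1.50 with IFN beta, and 0.63, 1.13 and 0.42 with IFN epsilon (2.26 ± 0.37, adjusted p = 0.0456). A second, dimmer Oas2 probe gave 0.55 ± 0.34 (unadjusted p = 0.134 in the fit over all probes), so the size for Oas2 depends on the probe. In both genes, by the probes used, the IFN beta samples lay above every untreated one and the IFN epsilon samples higher still. Against untreated cells of the same date (1 and 2), IFN beta was higher by 0.67 and 0.93 in Oas3 and by 0.32 and 1.25 in Oas2. Oasl2, a related gene, differed by 1.53 ± 0.20 (adjusted p = 0.0188).

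Another 4 of the 10 were tripartite-motif genes. Trim30a, a mouse protein known to restrain NF-kB signalling, had the largest fitted difference among called genes. It was at -3.98, -3.61 and -3.88 in untreated cells, -3.50 and -3.70 with IFN beta, and -1.56, -0.67 and -0.69 with IFN epsilon (2.61 ± 0.38, 6.09-fold, adjusted p = 0.0224). Its IFN beta and untreated ranges overlapped, and against untreated cells of the same date IFN beta differed by 0.48 and -0.10 on dates 1 and 2. Trim30d (2.26 ± 0.34), Trim34a (1.58 ± 0.22) and Trim12c (1.45 ± 0.24) followed, with adjusted p-values of 0.0285, 0.0201 and 0.0466. The other called members were Ifi44 (1.91 ± 0.28, adjusted p = 0.0224) and Phf11d (1.89 ± 0.30, adjusted p = 0.0335). Trim34a is related to Trim34b and Phf11d to Phf11c, and whether the probes separate them was not tested.

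Some of the largest differences in this list did not pass. The largest was that of Ifit3b, 3.25 ± 0.58 (adjusted p = 0.0690 by limma), and whether its probe and that of Ifit3 separate the 2 genes was not tested. Ifit1, which binds foreign RNA ends and blocks their translation, was at -1.19 and -1.17 with IFN beta and at 0.61, 2.35 and 3.21 with IFN epsilon. The difference was 2.80 ± 0.48 (adjusted p = 0.0569). Ifit3, its partner, was at -1.11 and -1.71 with IFN beta and at 0.36, 1.84 and 3.98 with IFN epsilon (2.86 ± 0.59, adjusted p = 0.138). Rsad2, the antiviral enzyme viperin, differed by 1.37 ± 0.80 (95% interval -0.37 to 3.11), and a second, dimmer probe by 1.96 ± 0.59 (unadjusted p = 0.00595). In Ifit1, Ifit3 and the brighter Rsad2 probe, date 1 gave the smallest value with IFN epsilon and date 3 the highest.

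Both called sensor genes, of 19 tested (0.118% of all genes were called), belong to the cytosolic RNA helicases. Ddx58 encodes RIG-I, which recognises viral RNA ends, and was at 1.97, 1.67 and 2.38 in untreated cells, 2.16 and 2.20 with IFN beta, and 3.36, 3.57 and 4.15 with IFN epsilon (1.33 ± 0.17, 2.51-fold, adjusted p = 0.0188). Dhx58 encodes their regulator LGP2 and was at -2.35, -2.92 and -2.29 untreated, -1.95 and -2.33 with IFN beta, and -0.45, -0.05 and 0.11 with IFN epsilon (1.92 ± 0.26, 3.80-fold, adjusted p = 0.0188). In Ddx58 both IFN beta samples lay within the untreated range over all dates, and in Dhx58 that of date 1 was above it. Against untreated cells of the same date, IFN beta was higher by 0.19 and 0.53 in Ddx58 and by 0.40 and 0.59 in Dhx58. The third helicase of the family, Ifih1 (MDA5), chosen after its value was seen, differed by 1.17 ± 0.24 but was not called (adjusted p = 0.127). The adaptor Mavs differed by 0.21 ± 0.12, and the list median was 0.25.

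Called genes outside every list were Apol9a, Apol9b and AW011738. Apol9a and Apol9b are interferon-inducible apolipoprotein L genes. Apol9b was at 4.16, 3.45 and 4.13 in untreated cells, 4.56 and 4.28 with IFN beta, and 5.68, 5.45 and 5.80 with IFN epsilon (1.17 ± 0.16, adjusted p = 0.0200). Apol9a differed by 1.15 ± 0.18 (adjusted p = 0.0332) and AW011738 by 1.66 ± 0.22 (adjusted p = 0.0188). In Apol9a and Apol9b both IFN beta samples were above every untreated sample.

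**Figure D2:**
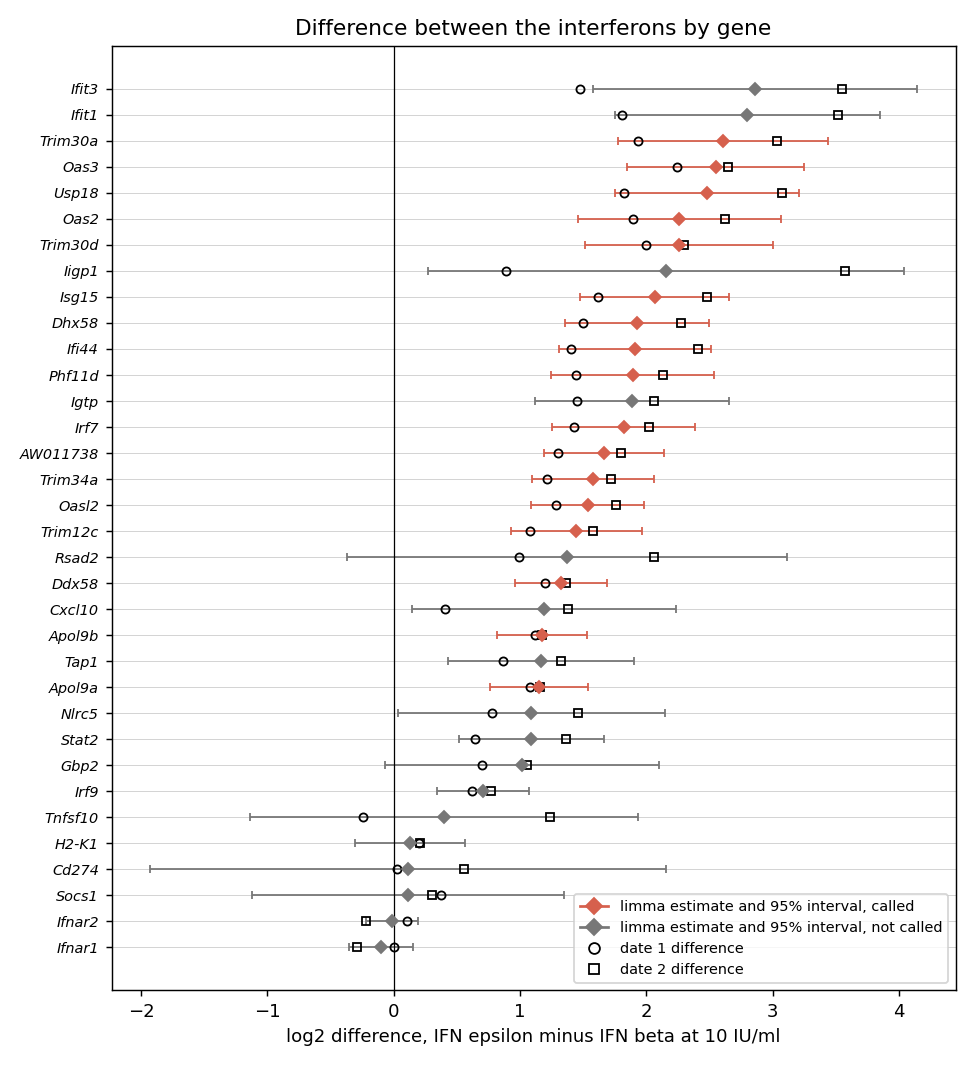
Difference between the interferons at 10 IU/ml (horizontal axis, log2, IFN epsilon minus IFN beta) for 34 named genes, with the fitted value and 95% interval as diamonds and bars, and the differences on date 1 (circles) and date 2 (squares). The 17 called genes are red; Ifit1, Ifit3 and Iigp1 lie as far right but have wider intervals, and Iigp1 and Tnfsf10 were not above background with IFN beta.

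The interferon-inducible GTPases, which attack vacuoles of intracellular pathogens, had the highest list median at 1.20, yet 0 of 19 were called by limma (12 at an unadjusted p under 0.05, all higher). In 13 every IFN epsilon sample was above both IFN beta samples (2.79% of all genes), and 13 were at least 2-fold higher in the fit (0.617% of all genes). Igtp was at 0.94, 0.85 and 1.16 in untreated cells, 1.41 and 1.49 with IFN beta, and 2.86, 3.55 and 4.24 with IFN epsilon (1.88 ± 0.35, adjusted p = 0.0857). Gbp2 was at -0.15 and 0.37 with IFN beta and at 0.55, 1.42 and 2.62 with IFN epsilon (1.01 ± 0.50, adjusted p = 1). Both groups are separate in these genes, by a wide margin in Igtp and a narrow one in Gbp2. Iigp1 was not well above background on any untreated or IFN beta array and was on all 3 IFN epsilon arrays, at -5.13, -3.59 and -2.97. The lowest signal measured above background on each IFN beta array, or the probe's own where higher, gave a reference level. The mean with IFN epsilon was 3.35-fold above the mean of that level. The IFN epsilon mean includes date 3 and the IFN beta mean does not, so this is not a lower bound. By measured signal the fold was 1.85 on date 1 and 11.9 on date 2, with IFN beta not well above background. With the date in the fit the difference was 2.15 ± 0.87, with an interval of 0.27 to 4.04 (adjusted p = 1).

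In the list of genes for MHC class I presentation, 0 of 24 were called by limma (3 at an unadjusted p under 0.05, all higher), and the median was 0.27. In 11 every IFN epsilon sample was above both IFN beta samples (2.79% of all genes), and 20 were higher on both dates (10.8% of all genes). Tap1, a subunit of the peptide transporter, was at -0.27 and -0.21 with IFN beta and at 0.59, 1.12 and 1.63 with IFN epsilon, a difference of 1.17 ± 0.34 (adjusted p = 0.868). Nlrc5, the transactivator of class I genes, differed by 1.09 ± 0.48 (adjusted p = 1). The heavy chain H2-K1 was at 5.15 and 5.41 with IFN beta and at 5.35, 5.62 and 4.83 with IFN epsilon. Those samples overlapped, with a difference of 0.13 ± 0.20 and an interval of -0.31 to 0.57 that leaves out a 2-fold rise. B2m, its light chain, differed by 0.07 ± 0.13.

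Chemokines and cytokines showed little: 0 of 21 called by limma, 1 at an unadjusted p under 0.05, and a median of -0.01. That gene was Cxcl10, which attracts activated T cells. It was at 1.54, 0.83 and 2.30 in untreated cells, 2.13 and 1.32 with IFN beta, and 2.53, 2.70 and 4.70 with IFN epsilon. The date 3 sample was the highest with IFN epsilon as well as untreated, and the difference was 1.19 ± 0.48 (adjusted p = 1). The chemokine Ccl5 differed by 0.08 ± 0.18.

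None of 29 cell death genes was called by limma (1 at an unadjusted p under 0.05), with a median of 0.03. Tnfsf10, the death ligand TRAIL, was above background on 0 of 2 IFN beta arrays and 2 of 3 IFN epsilon arrays. Its fitted difference was 0.40 ± 0.70 (95% interval -1.14 to 1.93), and the difference on date 1 was -0.24, so no rise was established. Among 16 surface ligands 0 were called and 3 had an unadjusted p under 0.05. Cd274, the checkpoint ligand PD-L1, was at -2.92 and -3.50 with IFN beta and at -2.90, -2.94 and -1.56 with IFN epsilon. Only the date 3 sample stood out, and the interval of the difference, -1.93 to 2.15, was too wide to say more.

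Lists not tied to interferon had medians near 0. The medians were -0.00 over 23 immediate early and stress genes, 0.02 over 19 NF-kB targets, -0.02 over 28 cell cycle genes and -0.07 over 15 housekeeping genes, with 0 called by limma in each and 0, 0, 1 and 1 at an unadjusted p under 0.05. The housekeeping list leaned to the lower side: Gapdh (0.01 ± 0.10) was the only 1 of its 15 genes above 0. Over all 14425 genes tested, 6361 were above 0. Among the 11 epithelial and mesothelial markers tested 0 were called, while Msln (-0.44 ± 0.18) and Wt1 (-0.24 ± 0.08) were lower at an unadjusted p under 0.05. The part of these markers in the differences of the interferon genes was not tested.

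**Figure D3:**
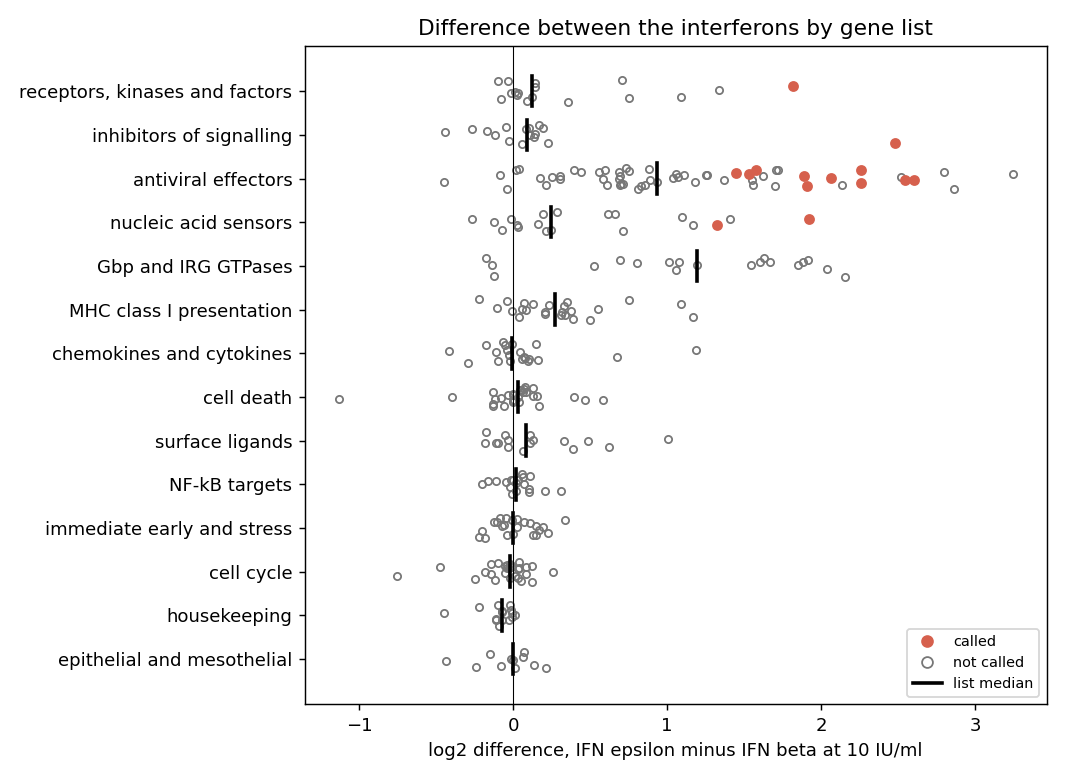
Difference between the interferons at 10 IU/ml for every tested gene of 14 lists (horizontal axis, log2, IFN epsilon minus IFN beta), called genes filled red and the list median as a black bar. Antiviral effectors (median 0.93) and GTPases (1.20) are shifted right, and cell cycle (-0.02) and housekeeping genes (-0.07) have medians near 0.

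The difference was present on both dates in all 17 called genes, an order that 10.8% of all genes showed. Since the 17 were called from these same samples, this order and the slide values below are a description and not a replication. On date 1 it ran from 1.08 to 2.24 (median 1.42) and on date 2 from 1.16 to 3.07 (median 2.13), and it was larger on date 2 in 17 of 17. Slides were crossed with the interferons: on date 1 IFN epsilon was on slide 2 and IFN beta on slide 3, and on date 2 the reverse. Within slide 2 the 17 genes differed by 1.08 to 2.24 (IFN epsilon of date 1 against IFN beta of date 2) and 1.41 to 3.45 (IFN epsilon of date 3), and within slide 3 by 0.89 to 2.83. With no block for the date, limma called 14 genes, 10 of them among the 17. A difference of at least 2-fold on both dates was found in 46 genes higher with IFN epsilon (0.319%), the 17 included, and 7 of the 46 were not above background on any IFN beta array. The reverse was found in 7 genes (0.0485%), none of them above background on any IFN epsilon array.

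Untreated cells gave the background of each interferon, and these comparisons share samples with the one above, so their values are set side by side only. Against untreated cells limma called 74 genes higher and 0 lower with IFN epsilon (0.513%), and 0 genes with IFN beta (0%; 428 genes at an unadjusted p under 0.05, 2.97%). The 17 genes were 3.16 to 11.4-fold above untreated cells with IFN epsilon, with a median of 5.24. With IFN beta they were 1.18 to 2.04-fold above, with a median of 1.44. Usp18 had the highest IFN beta value, 1.03 ± 0.33 (log2, 95% interval 0.30 to 1.75, adjusted p = 1.00 by limma), and Trim30a the lowest, 0.24 ± 0.38. In 8 of the 17 both IFN beta samples were above every untreated sample, an order found in 4.69% of all genes. That order sets aside the date, and date 3 has no retained IFN beta sample. With the date in the fit, IFN beta minus untreated was above 0 in all 17, with an unadjusted p under 0.05 by limma in 6. For 7 of all 17 the interval left out a 2-fold rise over untreated cells with IFN beta. The antiviral list had a median of 1.45 with IFN epsilon and 39 of 59 called, and a median of 0.34 with IFN beta and 0 of 59 called.

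**Figure D4:**
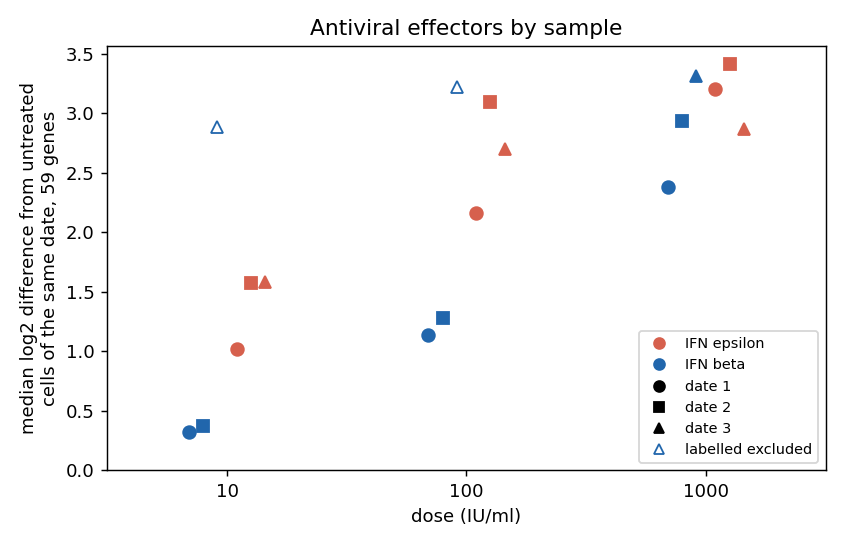
Median log2 difference of 59 antiviral effectors from untreated cells of the same date (vertical axis), for each sample by dose in IU/ml (horizontal axis), with dates as marker shapes and arrays labelled excluded as open triangles. At 10 IU/ml IFN epsilon (1.02, 1.58, 1.58) is above the retained IFN beta samples (0.32, 0.38), while the open triangle is at 2.89.

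The other doses place the lower one. Levels at 10 IU/ml IFN epsilon were set beside those at 100 IU/ml IFN beta, and doses differ, so no more than values are given. Isg15 averaged 6.05 ± 0.52 (SD, n = 3) with the former and 5.56 ± 0.13 (SD, n = 2) with the latter, Usp18 3.06 ± 0.68 and 2.71 ± 0.60, and Oas3 -1.26 ± 0.24 and -1.81 ± 0.16. Fitted with the date, the 17 genes differed by 0.07 to 0.76 between these 2 treatments, and limma called 0 genes (376 at an unadjusted p under 0.05, 2.61%). The interval of Usp18 was -0.63 to 0.83 and that of Ddx58 -0.11 to 0.62.

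At 100 IU/ml of both, 9 of the 17 genes were called higher with IFN epsilon (0.36% of all genes called higher, 7.6% at an unadjusted p under 0.05). The treated samples were other ones, but the spread and date terms came from the same fit. IFN beta again had 2 samples, because its date 3 array at 100 IU/ml is also labelled excluded. The antiviral median of that array was 3.22, against 2.17, 3.10 and 2.70 in the IFN epsilon samples. Without it, all 17 differences at 100 IU/ml were above 0, from 0.53 to 2.64. Oas3 differed by 2.36 there and Apol9b by 0.53. At 1000 IU/ml the 17 differences were 0.08 to 0.55 with a median of 0.23, and limma called 0 genes (864 at an unadjusted p under 0.05, 5.99%). Isg15 was then at 7.28 ± 0.26 with IFN epsilon and 7.18 ± 0.49 with IFN beta (SD, n = 3 each), within the spread of the samples.

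Whether the difference between the interferons itself changed with dose was tested by interaction terms. Limma called 0 genes for 10 against 100 IU/ml (580 at an unadjusted p under 0.05, 4.02%) and 0 for 10 against 1000 IU/ml (406, 2.81%). In the 17 genes the difference was larger at 10 than at 100 IU/ml in 12 and larger than at 1000 IU/ml in 17, with lowest adjusted p-values of 0.880 and 0.570. Since these genes were chosen on the difference at 10 IU/ml, that order is a description.

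**Figure D5:**
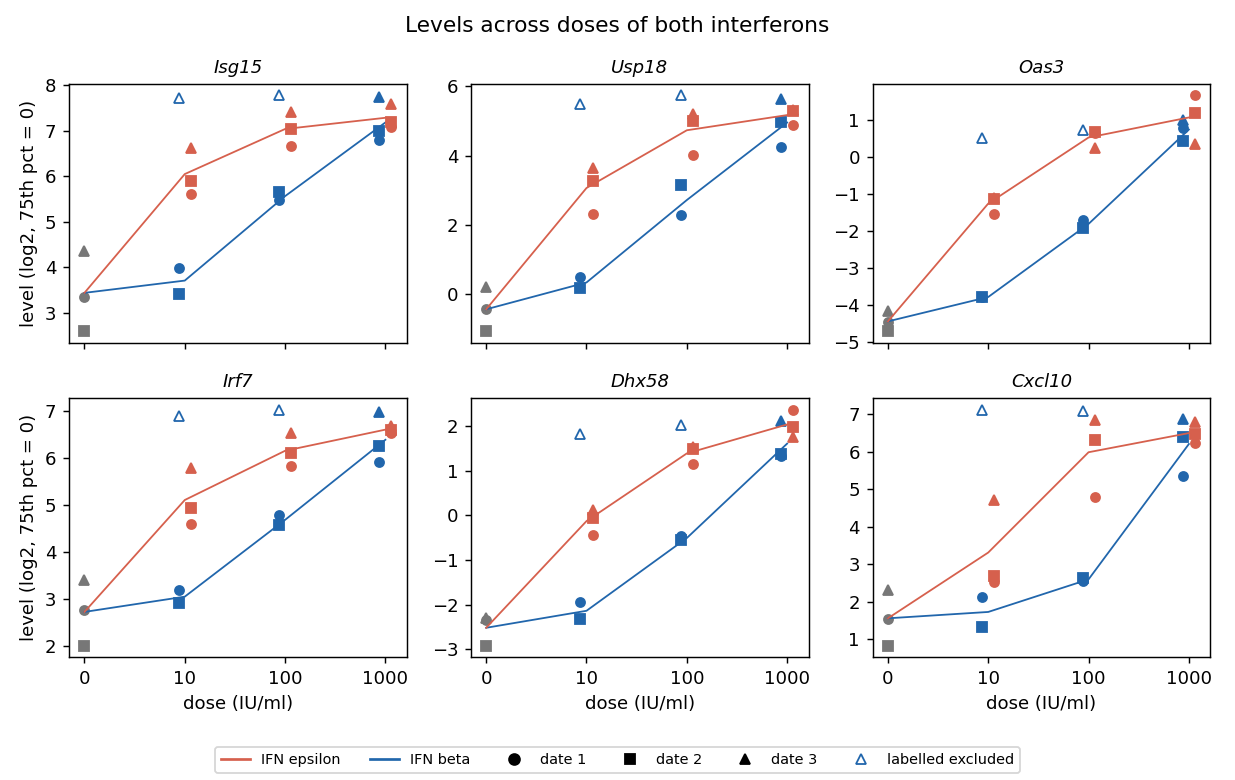
Levels of 6 genes (vertical axis, log2 signal minus the array's 75th percentile) across 0, 10, 100 and 1000 IU/ml of each interferon (horizontal axis), with a point per sample, lines through the means of retained samples and open triangles for the arrays labelled excluded. The lines are farthest apart at 10 or 100 IU/ml and close at 1000 IU/ml, where Isg15 was at 7.28 with IFN epsilon and 7.18 with IFN beta.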

How the data were processed

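Scanner files deposited per array hold a processed signal, an intensity. Per the file headers, Agilent Feature Extraction 11.0.1.1 had subtracted the background; arrays were not scaled to each other. The submitters' deposited value table is log2, and no source used here gives its steps. Its columns (medians 5.73 to 5.79) correlated with log2 scanner signal at 0.989 to 0.995, which set its direction. Every column had the same minimum (-1.57) and maximum (18.5), as quantile normalization across arrays would leave, though no source used here names that step. The deposited table served as an alternative only.

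Log2 signals had each array's 75th percentile subtracted. Control spots and outlier spots (79 to 280 per array) were left out, and 0 were saturated. Of 56605 probes 32994 matched a gene (22911 genes) through RefSeq accessions (GRCm38.p6, for names). Kept were probes that at least 2 samples of any group had well above background, and the brightest stood for its gene. The 2 arrays of each untreated sample were averaged, and 2 arrays labelled excluded were left out. This left 19 samples in 7 groups, fitted with limma 3.58.1 in R 4.3.3 with the replicate number as a block (10 residual degrees of freedom) with the call at 0.05 after Benjamini-Hochberg adjustment. The design text ties replicate numbers to dates. Deviations from group means correlated at 0.42 on average between samples of the same number (lowest pair -0.06). Other pairs, those within a group included, averaged -0.25, a value that centring on the group mean itself lowers. Scripts were tested on simulated data, and plots used matplotlib 3.10.9.

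Named were up to 20 called genes with the largest rises and 10 with the largest falls, the top 3 called of each of 17 lists, and a panel of 24, of which 1 is not reported here. Members, lists and panel were chosen with earlier results of these data known. Ifih1, Mavs, Jak1, Irf1, Socs3, B2m, Ccl5, Gapdh, Msln and Wt1 were added as examples after their values were seen. Replicates are separate experiments on 1 cell line. Alternatives changed the background correction (normexp, on median signals, offset 50), scaling, filter, block, probe rule and samples.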

Additional observations from a re-analysis of the deposited data

Results flagged for a closer look

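The array of IFN beta at 10 IU/ml on date 3, which the labels mark as excluded, carried a signal in data that the comparisons did not use. Its median over the 59 antiviral effectors was 2.89 (log2) above untreated cells of the same date, against 0.32 and 0.38 in the retained samples of that dose. For the 17 called genes it stood 2.28 to 5.44 above untreated cells of date 3, and the IFN epsilon sample of that date minus this array gave -2.19 to -0.60. The excluded array of IFN beta at 100 IU/ml gave an antiviral median of 3.22, against 1.13 and 1.28 in the retained samples, and IFN beta at 1000 IU/ml gave 2.38, 2.94 and 3.31.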

How the results depend on the processing

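The 17 differences were above 0 under all 19 alternatives run for them. The comparison at 10 IU/ml called 0 genes with both excluded arrays or with the IFN beta array alone (added after seeing the data), 0 with only its own 5 samples and no block, 7 without the filter on dim probes, and 0 to 16 when a replicate was left out. Without the replicate block it called 14; the other settings called 12 to 23. The antiviral median of 0.93 was 0.20 with the excluded array of this dose, in either form, and 0.82 to 1.18 when a replicate was left out. IFN epsilon against untreated cells (74 genes) called 29 without the replicate block, 30 with the slide as the block, 0 with the excluded arrays and 47 to 68 when a replicate was left out. IFN beta against untreated cells called 4 genes without its date 2 sample and 0 under the other settings, so leaving out a replicate gave 0 to 4. The interaction of 10 with 1000 IU/ml called 6 genes under median scaling, where the median of all genes moved to 0.31, and 0 to 1 when a replicate was left out; that with 100 IU/ml called 0 throughout. The cause of these changes was not tested.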
